A study of Caenorhabditis elegans with 2 samples.

Results

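Among the microRNA (miRNA) genes of Caenorhabditis elegans, mir-4936 had the strongest reproducible binding peak of the tagged Myb-like protein B0261.1, followed by mir-2214, mir-1829.3 and, last, mir-4937. They were chosen by the measured values, as the miRNA genes with the highest-signal peak summit within 100 bp in the authors' optimal list of peaks filtered by IDR (irreproducible discovery rate), which scores agreement between replicates. They are 4 of the 260 genes of biotype miRNA in the RefSeq annotation of the WBcel235 assembly (build ce11), and the other 256 serve as the set beside which they are described. Because signal in the IDR list selected them, their signals and ranks are given below as descriptions, and no test was made on them. The pooled and replicate lists hold the same reads and are not independent of that choice.

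Chromatin immunoprecipitation with sequencing (ChIP-seq) recovers the DNA bound by a protein, and peaks mark where the recovered DNA is concentrated. The worms were of strain OP662 (unc-119(tm4063) III; wgIs662), which stably expresses B0261.1 (vep-1 in the annotation) carrying GFP-FLAG at its C terminus, and the immunoprecipitation used an antibody against GFP. The labels' antibody field names B0261.1 itself, and the promoter that drives the transgene is not given there. Whole mixed-sex young adults had grown for 64 hours since their synchronisation as L1 larvae starved after bleaching, so a peak cannot be assigned to a tissue. There were 2 biological replicates (labelled 1 and 3) of this condition and no other condition.

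An miRNA gene is usually transcribed by RNA polymerase II into a longer RNA with a hairpin, which Drosha and then Dicer cut to a short mature miRNA. The mature form guides an Argonaute protein to messenger RNAs, mainly by pairing of its seed, the bases just after its 5′ end. Genes for tRNAs are transcribed by RNA polymerase III instead. Their promoter lies inside the gene, as an A box followed by a B box, which the factor TFIIIC recognises, and transcription stops at a run of T.

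The sequences at the IDR summits of mir-4936, mir-4937 and mir-2214 are shown first, to set the loci with a B box match beside one without. Each run covers 30 bases before to 110 bases after the summit on the strand of the miRNA, 5′ to 3′, with the summit at base 31 and any B box match in capitals. They were read from the RefSeq genome WBcel235 at chrIII:3249162-3249302 (plus strand), chrIV:1381719-1381859 (minus strand) and chrIII:7278622-7278762 (plus strand).
mir-4936: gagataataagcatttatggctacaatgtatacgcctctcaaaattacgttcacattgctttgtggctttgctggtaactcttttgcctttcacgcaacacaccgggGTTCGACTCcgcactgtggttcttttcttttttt
mir-4937: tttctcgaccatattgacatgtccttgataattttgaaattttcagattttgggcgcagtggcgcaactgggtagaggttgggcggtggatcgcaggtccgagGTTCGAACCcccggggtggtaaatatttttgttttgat
mir-2214: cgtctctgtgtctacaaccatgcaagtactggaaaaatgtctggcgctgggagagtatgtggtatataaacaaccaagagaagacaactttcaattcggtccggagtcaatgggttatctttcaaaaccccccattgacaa
The B box was searched as GTTCGANNC, GTTCAANNC, GATCGANNC or GATCAANNC, where N is any base. The runs of mir-4936 and mir-4937 hold a match downstream of the summit, and the run of mir-2214 holds none on either strand.

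The mature forms annotated for the members follow, with the seed (bases 2 to 8) in capitals, to show which members could be grouped by seed. They were read from the same genome at the annotated positions and written as RNA.
mir-4936,b: uGCUUUGUggcuuugcuggua
mir-2214,a: aUUCGGUCcggagucaauggg
mir-2214,b: cAUUGACAacaacuugaccggcguu
mir-1829.3,a: aAGCGAAAuucaagaugguugua
mir-1829.3,b: cAACCACUggaauuucucuauu
mir-4937,a: cUGGGUAGagguugggcggugga
No seed was shared between members. Of the 6 mature forms, mir-1829.3,b was the only form whose seed occurred in another miRNA gene, among 458 annotated mature forms. That seed was shared with mir-1829.2,b, which has the identical mature sequence, and with mir-4812,b.

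The authors' IDR list held 1550 regions, with a signal value between 179 and 15652 and a median of 504. The pooled list of both replicates held 30000 regions, that of replicate 1 held 23931 and that of replicate 3 held 30000, with medians of 36.0, 15.5 and 32.2. The signal is the authors' value for each region, has no stated normalisation, and is compared only within a list. Read depth was not given in these lists, so the precision of a signal could not be set from counts.

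The gene mir-4936 had the strongest summit within 100 bp of any miRNA gene. It lies at chrIII:3249151-3249260 on the plus strand and is annotated as a precursor of 110 bp. Its IDR signal was 3897, at rank 141 of the 1550 regions. The signal was 3905 in the pooled list (rank 139), 670 in replicate 1 (rank 146) and 3396 in replicate 3 (rank 127). All of these values lay in the upper 1% of the pooled and replicate lists, and mir-4936 ranked 1 among miRNA genes in each list. The IDR summit, at 3249192, fell inside the precursor, 41 bp downstream of its first base. The offset averaged 38.5 ± 6.36 bp over the replicates' own lists (SD, n = 2), with 43 bp in replicate 1 and 34 bp in replicate 3.

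For mir-2214 the summit lay upstream of the precursor. The gene is at chrIII:7278715-7278778 on the plus strand and is 64 bp long. Its signal was 2666 in the IDR list (rank 287), 2667 in the pooled list (rank 286), 424 in replicate 1 (rank 353) and 2287 in replicate 3 (rank 281). It ranked 2 among miRNA genes in all 4 lists. The IDR summit was 63 bp before the first base of the gene, and the replicates placed it at -53 and -55 bp, a mean of -54 ± 1.41 bp (SD, n = 2).

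For mir-1829.3 the summit lay past the end of the gene. The gene is at chrX:15236362-15236423 on the minus strand, 62 bp long, and the IDR summit was 116 bp downstream of its first base, 55 bp beyond its last. The signal was 660 in the IDR list (rank 681), 658 in the pooled list (rank 682), 124 in replicate 1 (rank 920) and 604 in replicate 3 (rank 676). Replicate 1 gave an offset of 110 bp and replicate 3 one of 121 bp, with a mean of 115.5 ± 7.78 bp (SD, n = 2). Its rank among miRNA genes was 3 in the IDR and pooled lists and in replicate 1, and 5 in replicate 3.

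The weakest member was mir-4937, at chrIV:1381705-1381814 on the minus strand, with a precursor of 110 bp. Its signal was 372 in the IDR list (rank 899), 373 in the pooled list (rank 894), 49.1 in replicate 1 (rank 1636) and 312 in replicate 3 (rank 943). In the IDR list its signal lay below the median of 504, and in replicate 1 it fell outside the 1550 regions of highest signal. The IDR summit was 15 bp before the first base of the gene and 20 bp before it in both replicates. Its rank among miRNA genes was 4 in the IDR and pooled lists, 5 in replicate 1 and 6 in replicate 3.

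**Figure D1:**
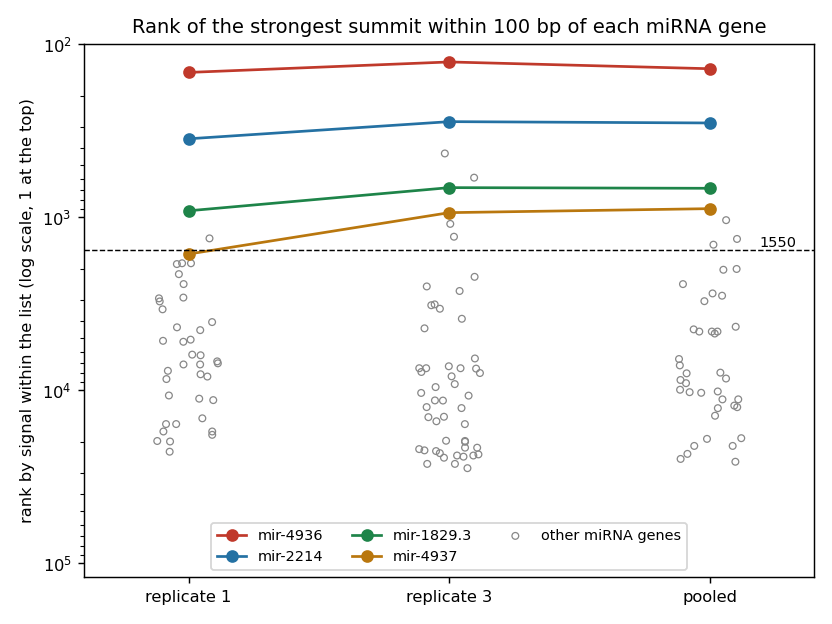
Rank by signal (vertical axis, log scale, 1 at the top) of the strongest summit within 100 bp of each miRNA gene in the replicate 1, replicate 3 and pooled lists; coloured points joined by lines are the 4 members, open points the other miRNA genes with such a summit, and the dashed line marks rank 1550, the length of the IDR list. The members kept the same order in each list, from mir-4936 (ranks 146, 127 and 139) to mir-4937 (ranks 1636, 943 and 894).

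Few other miRNA genes had an IDR summit within 100 bp. Those were mir-52, mir-5549 and mir-1829.2, or 1.17% of the other 256 genes, against the 4 members, which had one by construction. In the pooled list 15.2% of the other miRNA genes had a summit within 100 bp, in replicate 1 14.8% and in replicate 3 19.5%, while all 4 members had one in each list. Among as many highest-signal regions as the IDR list holds, the shares of other miRNA genes were 0.391% in replicate 1 and 1.56% in replicate 3. There 3 members were present in replicate 1, where mir-4937 was missing, and 4 in replicate 3. Since the IDR list rests on these same lists, nothing is read from the members' counts against those shares. In the pooled list the signals of the 4 members ran from 373 to 3905, and those of the 39 other miRNA genes with a summit ran from 23.1 to 293 with a median of 51.0.

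The step from the members to the next genes by signal was small. The lowest member, mir-4937 at 372, was followed by mir-52 at 277, with a summit 8 bp before its first base, and by mir-5549 at 217, also 8 bp before. The third, mir-1829.2, had 183 at a summit 37 bp past its end. Replicate 3 held mir-52 at 255 and mir-5549 at 200, while in replicate 1 mir-52 had 42.2 and mir-5549 had no summit within 100 bp.

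Summits as strong as those of the members lay just beyond 100 bp. An IDR summit of signal 3695 (rank 160), higher than that of 3 of the 4 members, lay 125 bp upstream of mir-51. In replicate 1 the summit of mir-4936, at 670 (rank 146), was slightly below that of mir-51, at 688 (rank 140). Another IDR summit, with a signal of 1930 (rank 418), lay 113 bp upstream of mir-4812, and one with 1064 (rank 572) lay 103 bp upstream of mir-1829.2. The members' own distances were 0 bp for mir-4936, 15 bp for mir-4937, 55 bp for mir-1829.3 and 63 bp for mir-2214. In replicate 3 the summits of mir-4812 (signal 1602) and mir-1829.2 (844) were each 93 bp upstream and therefore inside the limit, which moved mir-1829.3 and mir-4937 down the order there.

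**Figure D2:**
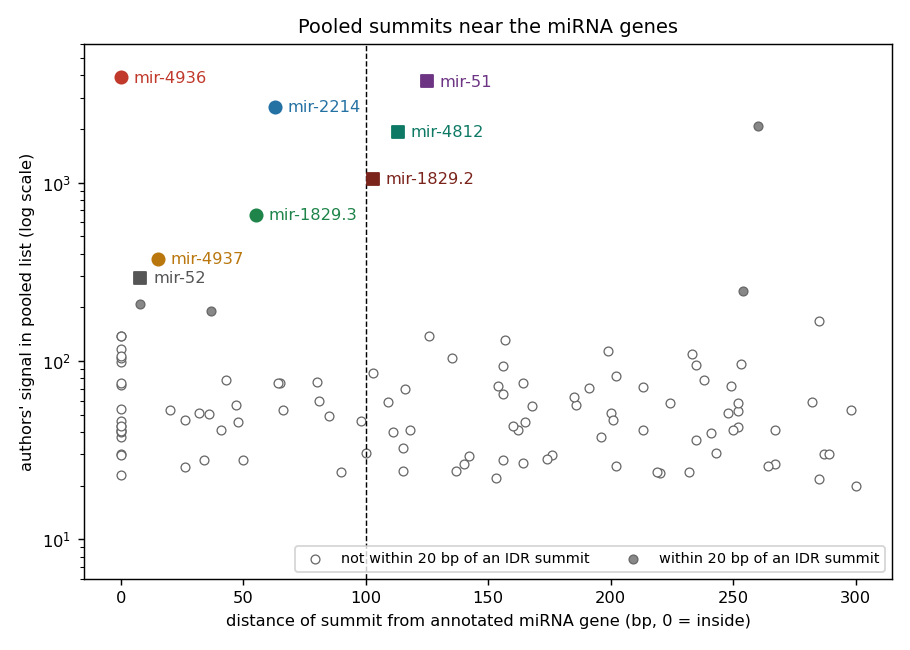
Signal in the pooled list (vertical axis, log scale) against the distance in bp from the annotated miRNA gene for each pooled summit up to 300 bp away; circles in colour are the members, squares in colour other named genes, filled grey points lie within 20 bp of an IDR summit, and the dashed line marks 100 bp. The summits of mir-51, mir-4812 and mir-1829.2 stand just right of the line, between 1050 and 3698, above mir-1829.3 at 658 and mir-4937 at 373.

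Of the remaining named genes, mir-54 had its nearest IDR summit 245 bp away and mir-55 had the same summit 415 bp away, with a signal of 269. For mir-1819 it was 336 bp away with a signal of 885, and that summit stood 25 bp before the first base of the tRNA-Tyr gene R11.t4. Among miRNA genes without an IDR summit within 100 bp, mir-61, mir-8196.1, mir-53 and mir-8196.2 came nearest to the members by pooled signal, with 139, 138, 117 and 107, all inside the gene. These values were below that of mir-4937 in the same list.

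The members differed in their genomic surroundings. Both mir-2214 and mir-1829.3 lie in introns of protein-coding genes on the same strand, and mir-4936 and mir-4937 lie between genes. The host of mir-2214 is B0361.11, where it sits in intron 3 of a transcript of 11 exons. The host of mir-1829.3 is piki-1, which encodes a class II phosphoinositide 3-kinase, and it sits in intron 20 of a transcript of 23 exons. Among the other miRNA genes, 100 of 256 (39.1%, 95% Wilson interval 33.3 to 45.2%) lay inside a protein-coding gene, 69 of them (27.0%) on the same strand. No member overlapped an mRNA exon, and 13 of the other 256 genes did. A count of 2 among 4 members is too small to set against either share.

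Next to mir-4936 the nearest gene was the protein-coding Y53G8AL.4 on the other strand, whose 3′ end lay 79 bp past the precursor and 147 bp from the summit. The nearest gene on the other side, nduf-9, began 576 bp away. No tRNA, tRNA pseudogene, snoRNA, snRNA or unclassified noncoding RNA (ncRNA) gene lay within 500 bp of mir-4936. The same held for mir-4937, for which nhr-41, a nuclear hormone receptor gene 4401 bp away, was the only protein-coding gene within 5000 bp.

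The summit of mir-2214 stood between a pair of divergent small RNA genes. On its upstream side, the ncRNA gene B0361.13 (chrIII:7278469-7278531, minus strand) began 121 bp from the summit, and on its downstream side mir-2214 began 63 bp from it. The files give no value that assigns the summit to either gene.

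The summit of mir-1829.3 was the weaker of a pair in the same region. The stronger IDR summit, at 15236102, had a signal of 2078 (rank 390) and lay 205 bp away. It was 22 bp before the first base of the tRNA-Val gene F39B1.t1 (chrX:15236124-15236196, plus strand), which overlaps the ncRNA gene F39B1.5 (chrX:15236122-15236212, minus strand). The member's summit itself lay 111 bp from F39B1.t1. The stronger summit exceeded the weaker by 3.15 times in the IDR list, 3.16 times in the pooled list, 2.57 times in replicate 1 and 3.08 times in replicate 3. The gap between them was 205, 205, 202 and 200 bp in the same lists.

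That gap was close to the smallest the lists contain. Neighbouring summits of overlapping regions were never closer than 199 bp in any of the 4 lists. In the IDR list there were 270 such pairs, with a median gap of 209.5 bp, and 74.1% of them fell between 180 and 240 bp. The 2 summits of mir-1829.2 were 199 bp apart, with the stronger, 1064, upstream of the gene and the weaker, 183, past it. Whether a weaker summit at this spacing marks binding of its own was not tested. When overlapping regions were merged and only the highest summit kept, mir-1829.3 no longer had an IDR summit within 100 bp and the other 3 members did.

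**Figure D3:**
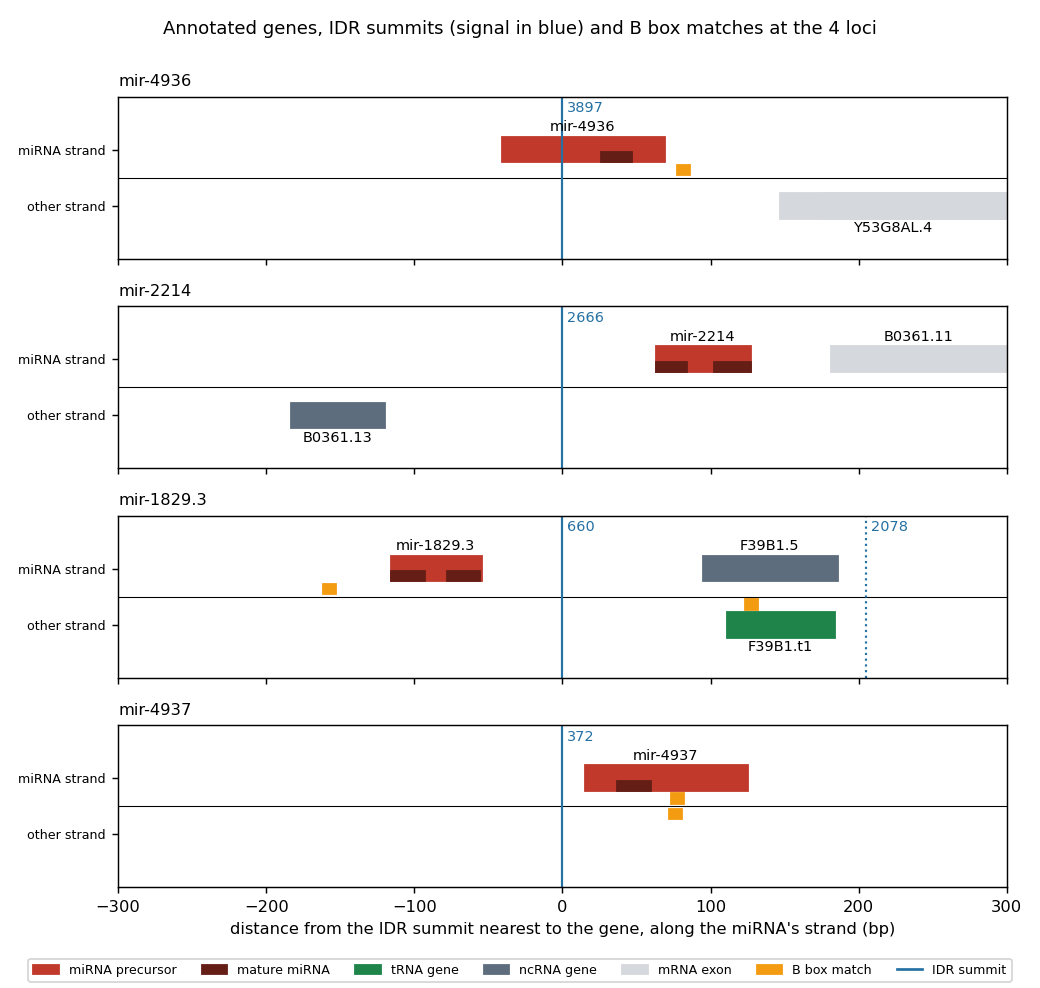
Maps of the 4 loci, with distance from the IDR summit nearest to the gene in bp along the strand of the miRNA on the horizontal axis; boxes above the line are on that strand and boxes below on the other, vertical lines are IDR summits labelled with their signal, and orange boxes are B box matches. A B box match lies 77 bp after the summit of mir-4936 and 73 bp after that of mir-4937, and the summit of mir-1829.3 (660) has a stronger summit (2078) 205 bp away at F39B1.t1.

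A tRNA gene within 500 bp was rare near miRNA genes. Among the members mir-1829.3 had one, 166 bp from the precursor, and among the other 256 genes 3 did (1.17%, Wilson interval 0.399 to 3.39%). An ncRNA gene lay within 500 bp of mir-2214 and of mir-1829.3, and of 67 of the other 256 genes (26.2%). A snoRNA gene lay near none of the members and near 6 of the others (2.34%).

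The summits of mir-4936 and mir-4937 stood upstream of a B box, at distances like those of tRNA genes. At 521 tRNA genes with both an IDR summit within 100 bp and a B box, the box began a median of 78 bp after the summit, with quartiles of 71 and 86 bp. At mir-4936 the distance was 77 bp in the IDR list, 75 bp in replicate 1 and 84 bp in replicate 3, on the strand of the miRNA. At mir-4937 it was 73 bp in the IDR list and 78 bp in each replicate, again on the strand of the miRNA. All of these values were within the quartiles of the tRNA genes. Both genes are annotated as miRNA, and no tRNA gene lay within 500 bp of either.

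The box of mir-4936 began 118 bp from the start of the gene, just past the end of the 110-bp precursor, and a run of 4 T began 13 bases after the box. No A box match preceded it. The box of mir-4937 began 58 bp from the first base, inside the precursor, with a run of 5 T starting 16 bases after it and an A box match 44 bp before it. The letters of this box also match on the other strand. For scale, in tRNA genes with a peak the B box began a median of 51 bp from the start of the gene (quartiles 51 and 52 bp), and the summit a median of 25 bp before that base, at -25 bp (quartiles -30 and -19 bp).

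A B box match is common in this list, which limits what a match alone shows. Within 100 bp on either strand it was found at 766 of the 1550 IDR summits (49.4%), at 311 of the 952 IDR summits over 250 bp from any tRNA gene (32.7%) and at 3397 of the 30000 pooled summits (11.3%). An A box match was found at 51.7%, 35.0% and 11.1% of the same sets. Around the annotated genes, with 100 bp on each side, 3 of 4 members and 30 of the other 256 miRNA genes (11.7%, Wilson interval 8.33 to 16.2%) held a B box match. The third member was mir-1829.3, whose match began 46 bp upstream of the gene and 162 bp from the summit. The match nearest to its summit, which began 131 bp away on the other strand, was that of F39B1.t1. No match lay within 150 bp of the summit of mir-2214. A match describes letters in a window and does not show that a factor binds there.

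**Figure D4:**
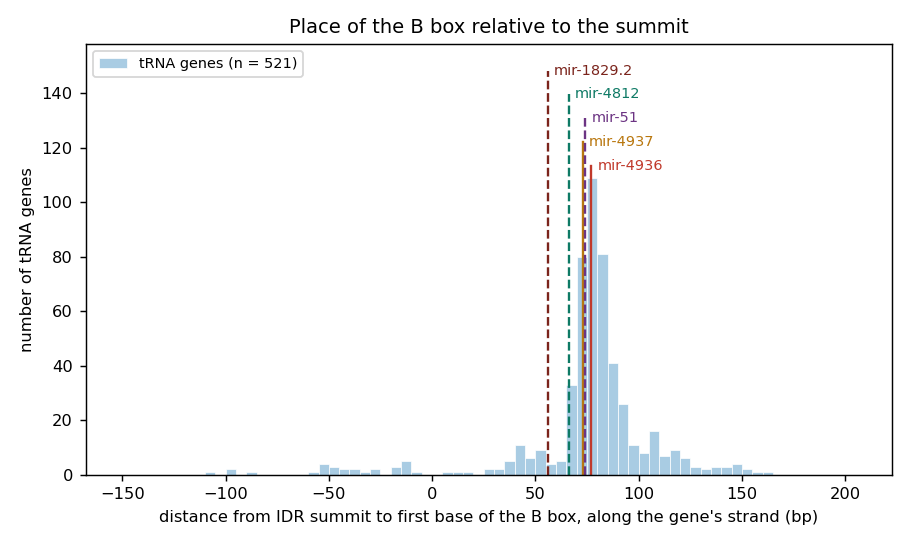
Number of tRNA genes (bars, n = 521) by the distance in bp from the IDR summit to the first base of the B box, along the strand of the gene; vertical lines mark miRNA loci, solid for members and dashed for other miRNA genes. The lines of mir-4936 (77 bp) and mir-4937 (73 bp) fall within the quartiles of the tRNA genes, 71 and 86 bp, and that of mir-51 (74 bp) does as well.

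The summits just outside 100 bp also had a B box match downstream, and their sequences are shown for comparison with those of mir-4936 and mir-4937. The runs are laid out as before, from chrIV:11026127-11026267 (minus strand), chrX:15242852-15242992 (minus strand) and, for the stronger summit of mir-1829.2, chrX:14976986-14977126 (plus strand).
mir-51: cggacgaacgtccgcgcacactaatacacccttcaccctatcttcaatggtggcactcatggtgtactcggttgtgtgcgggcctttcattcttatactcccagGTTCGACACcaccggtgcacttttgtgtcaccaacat
mir-4812: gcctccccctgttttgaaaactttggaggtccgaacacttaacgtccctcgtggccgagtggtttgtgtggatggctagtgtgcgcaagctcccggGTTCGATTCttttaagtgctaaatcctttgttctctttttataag
mir-1829.2: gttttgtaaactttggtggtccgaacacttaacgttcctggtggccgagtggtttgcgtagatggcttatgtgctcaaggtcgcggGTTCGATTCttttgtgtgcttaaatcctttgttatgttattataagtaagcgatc
The B box began 74 bp after the summit of mir-51, 66 bp after that of mir-4812 and 56 bp after that of mir-1829.2, in each case on the strand of the miRNA and upstream of the precursor. The distance at mir-51 was within the quartiles of the tRNA genes, 71 and 86 bp, and those at mir-4812 and mir-1829.2 were below them. The summit of mir-51 also lay 18 bp before the first base of an annotated ncRNA gene of 89 bp on the same strand, F36H1.17, in which the box began 56 bp from the first base. A run of 4 T directly followed the boxes of mir-4812 and mir-1829.2, each with an A box match 45 bp before the box.

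The family of mir-1829.3 shares this upstream box. A B box match began 46 bp upstream of mir-1829.3 and mir-1829.1, and 47 bp upstream of mir-1829.2 and mir-4812, always on the strand of the miRNA. The precursor of mir-1829.3 was identical to that of mir-1829.2 at 56 of 60 aligned bases (93.3%), to that of mir-1829.1 at 83.3% and to that of mir-4812 at 78.7%. The 200 bases upstream of mir-1829.3 matched those of mir-1829.1 at 194 of 199 aligned bases (97.5%), those of mir-4812 at 82.3% and those of mir-1829.2 at 82.1%.

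Peak signal differed within this family. Both mir-1829.3 and mir-4812 lie in introns of piki-1, in introns 20 and 7, while mir-1829.2 lies in intron 2 of F20D1.3 and mir-1829.1 in intron 5 of gas-1, which encodes a subunit of mitochondrial complex I. The IDR summit upstream of mir-4812 had a signal of 1930 and that upstream of mir-1829.2 had 1064. For mir-1829.3 no summit lay upstream within 500 bp in any list, and its own summit was downstream. For mir-1829.1 no IDR summit lay within 500 bp, and the nearest pooled summit, 168 bp upstream, had a signal of 55.9. Of the 171 runs of 31 bases within 100 bp of the IDR summit, 66.1% occurred once in the genome at mir-1829.3 and 100% at mir-4936, mir-2214 and mir-4937. Elsewhere in the family the share was 90.6% at mir-1829.2 and 100% at mir-4812. Since mir-1829.2 has an upstream and a downstream IDR summit, which of them its share covers is not given here. The runs at mir-1829.3 do not reach the bases upstream of the gene, which it shares most closely with mir-1829.1. How reads with several possible positions were handled is not given in the sources used here, and its part in the signals of this family was not tested.

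The best alignment scores to tRNA genes were high among miRNA genes for 3 of the 4 members. The 200 bases on each side of the centre of each miRNA gene, with annotated tRNA genes masked, were aligned locally to 200 distinct tRNA gene sequences, with 1 point for a match and -1 for a mismatch. The best score was 27 for mir-4937, 24 for mir-4936, 23 for mir-1829.3 and 14 for mir-2214, against a median of 15 and a 95th percentile of 19 over the other 256 miRNA genes. The alignment of mir-4937 matched a tRNA-His gene at 51 of 71 columns (71.8%), that of mir-4936 a tRNA-Arg gene at 45 of 63 (71.4%) and that of mir-1829.3 a tRNA-Pro gene at 38 of 51 (74.5%). The score of mir-2214 lay below the median of the others. Where each alignment lay relative to the summit is not given here, so a score is not tied to the peak. At mir-1829.3 the B box match on the strand of the miRNA began 162 bp upstream of the summit, on the far side of the precursor. Among other named genes, mir-4812 scored 25, mir-1829.2 24, mir-1829.1 21 and mir-51 15, so mir-51 had the box without a high score.

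High scores were also found far from IDR summits. The miRNA genes mir-4806, mir-8191 and mir-8189, named here after their values were seen, scored 31, 28 and 27, as high as mir-4937 or higher. Each of these genes also held a B box match, inside it or within 100 bp on either side. Their nearest IDR summits were 16028, 15899 and 140547 bp away. The tRNA-His gene that mir-4937 matched best, Y113G7B.t1, was also the best match of mir-4806 and mir-8189. It was the best match of mir-4812, mir-1829.2 and mir-1829.1 as well. In the other lists mir-4806 and mir-8191 had no summit within 100 bp, and mir-8189 had one in each, with a signal of 45.9 in the pooled list, 13.5 in replicate 1 and 33.4 in replicate 3.

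The predicted precursors of the members were less stable per base than most. The minimum free energy was -0.155 kcal/mol per nucleotide for mir-4936, -0.264 for mir-4937, -0.311 for mir-2214 and -0.323 for mir-1829.3, against a median of -0.364 over the other 256 genes. Counted from the most stable of 260, mir-4936 ranked 257, mir-4937 227, mir-2214 197 and mir-1829.3 185. The values of the other genes ran from -0.8 to -0.122, so all members lay within their range. The annotated lengths differ, with 110 bp for mir-4936 and mir-4937, 64 bp for mir-2214 and 62 bp for mir-1829.3, and a median of 95.5 bp for the others, of which 25 were 110 bp long.

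**Figure D5:**
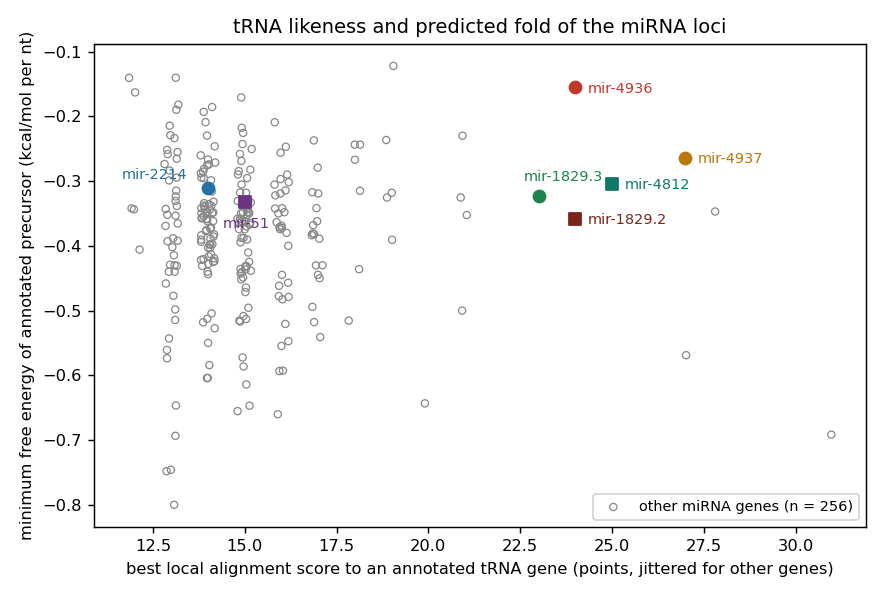
Minimum free energy of the annotated precursor in kcal/mol per nucleotide (vertical axis) against the best local alignment score to a tRNA gene (horizontal axis) for the miRNA genes; coloured circles are the members, coloured squares mir-51, mir-4812 and mir-1829.2, and open points all other miRNA genes. The members mir-4936, mir-4937 and mir-1829.3 score 23 to 27, to the right of most genes, and mir-2214 scores 14.

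In the IDR list the members' signals lay on both sides of the median of the tRNA genes. The 524 of 612 nuclear tRNA genes with an IDR summit within 100 bp had a median signal of 2589, with quartiles of 1648 and 3733. The IDR signal of mir-4936, 3897, was above the upper quartile and that of mir-2214, 2666, was near the median. The signals of mir-1829.3, 660, and mir-4937, 372, were below the lower quartile. In replicate 1 the median of tRNA genes was 446, beside 670 for mir-4936, 424 for mir-2214, 124 for mir-1829.3 and 49.1 for mir-4937, and in replicate 3 it was 2069, beside 3396, 2287, 604 and 312.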

How the data were processed

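ChIP-seq of GFP-tagged B0261.1 in whole young adults was analysed from the deposited peak lists for build ce11, 1 for each of 2 replicates, 1 for both pooled and 1 of peaks that passed IDR. The authors' input to IDR, per the deposited file descriptions, was a ranked list of peaks and background made from the alignments of each replicate, and of both, with a control. Which aligner, peak caller and IDR threshold they used is not given in the sources used here. The deposited signal (column 7) was used to rank and describe regions within a list. The authors' −log10 q-value (column 9) was 3.79 for every IDR region and was not used further. The summit is the region start plus the authors' offset (column 10). Lists of build ce10 and control libraries were not used here, and the lists give no read depth.

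Coordinates are 1-based in ce11, the assembly WBcel235, with genes as in RefSeq (annotation of WormBase release 298). The members and all lists, rules and alternatives were chosen with earlier results of these data known. Named genes were the 4 members, the other miRNA genes with an IDR summit within 100 bp, up to 5 with the nearest IDR summit 101 to 500 bp away, the 4 others of highest pooled signal, the genes within 500 bp of a member's summit, host genes, and genes with the same miRNA number. Offsets count from the first annotated base on the gene's strand, negative upstream. Boxes were searched on both strands. Local alignments opened a gap at -2 and extended it at -1. Wilson intervals are at the 95% level and cover counting of genes or summits only. Summit assignment and box search were checked on simulated data. Alternatives were other distances, region overlap, the 775 IDR peaks of highest signal, each replicate alone, lists without tRNA peaks and, chosen after seeing the data, members with overlapping regions merged. The software was Biopython 1.88, ViennaRNA 2.7.2 for folding, numpy 2.4.6, scipy 1.17.1, pandas 2.3.3 and matplotlib 3.10.9 under Python 3.11.15.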

Additional observations from a re-analysis of the deposited data

How the results depend on the processing

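The main list held 7 miRNA genes with an IDR summit within 100 bp. The count was 4 within 25 bp, 11 where any region overlapping the gene counted, and 3 in the stronger 775 peaks of the IDR list. It was 4 to 8 when 1 replicate was left out in turn, with as many highest-signal regions taken from the other, and without replicate 3 it was 4. Within 50 bp, within 250 bp, with merged sites and without tRNA peaks it was 5, 10, 5 and 7. The removal of tRNA peaks kept the summit of mir-1829.3, which lay 111 bp from F39B1.t1 in the same region as the stronger summit there. Of the 4 members, 2 (mir-4936 and mir-4937) had a summit within 25 bp and 2 within 50 bp. Among the 775 strongest peaks mir-4937 dropped out, with merged sites mir-1829.3 did, and with 1 replicate left out 3 to 4 members had a summit. The offset of mir-4936 was 34 bp in the pooled list and 34 to 43 bp with a replicate left out. With a replicate left out, the offset was -55 to -53 bp for mir-2214, 110 to 121 bp for mir-1829.3 and -20 bp for mir-4937 in both lists. The rank among miRNA genes was then 3 to 5 for mir-1829.3 and 5 to 6 for mir-4937, while mir-4936 stayed at 1 and mir-2214 at 2. The count of members with a tRNA gene within 100 bp of the summit was 0, and it was 1 (mir-1829.3) within 250 bp and 1 within 500 bp. The cause of these changes was not tested beyond the settings themselves. No paired analysis was possible because the samples form a single group. With 2 replicates, no stated normalisation and no read depth, the order of neighbouring ranks could not be given an error.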

Other observations

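The IDR summits nearest to mir-52, mir-5549, mir-54 and mir-55 also lay inside or within 500 bp of other annotated genes. The summit 8 bp before mir-52 (signal 277) fell inside 2 annotated ncRNA genes, 1 on each strand. The summit 8 bp before mir-5549 (signal 217) lay between the starts of 2 divergent protein-coding genes, 160 bp from that of rfc-4, which encodes a subunit of the clamp loader replication factor C, and 381 bp from that of eef-1A.1, which encodes the translation elongation factor eEF1A. The summit shared by mir-54 and mir-55 (signal 269) lay 68 bp before the first base of the ncRNA gene F09A5.11, on the strand of both miRNAs. No B box match lay within 150 bp of the IDR summits of mir-52 or mir-5549. At the summit shared by mir-54 and mir-55 a B box match on their strand began upstream, at -15 bp from the summit.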
